A study of Mus musculus with 9 samples.

Results

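The Notch genes described here are 10 rows of a table of 24421 genes, taken by symbol: the receptors Notch1, Notch2, Notch3 and Notch4, the ligands Dll1 and Jag1, and the target genes Hes1, Hes5, Hey1 and Hey2. All 10 were in the table. The table gives read counts from RNA sequencing of 9 libraries from the brains of C57BL/6 mice, in 3 groups of 3, which is more libraries per group than the study's text states for its sorted tumor cells. Control libraries came from SB28 tumors of mice given vehicle and BAL101553 libraries from SB28 tumors of mice given BAL101553, an oral prodrug that activates the spindle assembly checkpoint. SB28 is a glioma line made in mice, with GFP and luciferase as markers. The labels of both groups read whole tissue, whereas the study's methods describe tumor cells grown in the brain and sorted as CD45-CD11b-GFP+, with BAL101553 tumors taken later than control tumors so that tumor volumes matched. The study describes fewer samples per group there and names a different data series. Whether the later sampling holds for these libraries is therefore not known. If it does, time after implantation and drug cannot be told apart. The third group is labelled astrocytes, with BAL101553 as its treatment. How those cells were obtained is not given in the sources used here. SB28 is a single cell line, so its libraries stand for that line and not for glioma at large. The labels do not say whether each library came from a separate mouse, so the p-values below measure only the spread between these libraries.

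Notch signaling passes between touching cells. A ligand of the Delta-like or Jagged family on one cell binds a Notch receptor on its neighbor, the receptor is cut by ADAM proteases and then by gamma-secretase, and the freed intracellular domain enters the nucleus, where it joins the DNA-binding protein RBPJ and a Mastermind co-activator to switch on HES and HEY repressors. In the brain the pathway is known for keeping neural stem cells undifferentiated, for favoring astrocyte fate, and for its place in blood vessels, where NOTCH3 is a receptor of mural cells and DLL4 and NOTCH4 belong to endothelium.

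Control libraries held 24540452 to 28761388 counted reads, BAL101553 libraries 26667789 to 34013875 and astrocyte libraries 22919523 to 29230743. Levels below are CPM, the reads of a gene relative to the library's total reads, scaled by TMM over all 9 libraries. Where genes are compared with each other, the level is CPM per kilobase of exon. The summed level of 7 astrocyte markers was 11785 to 14508 CPM in the libraries labelled astrocytes and 681 to 971 CPM in the SB28 libraries. All 7 were higher in the former, by unlike amounts. Slc1a2, a glutamate transporter, lay between 4753 and 5965 CPM there and between 0.852 and 1.61 CPM in SB28. Gja1, most of the SB28 sum, lay between 1352 and 1605 CPM in astrocyte libraries and between 650 and 928 CPM in SB28. The astrocyte libraries also held RNA of other cells: the summed level of 6 oligodendrocyte markers was 10282 to 12723 CPM, that of 6 microglia markers 393 to 826 CPM, that of 6 mural cell markers 1082 to 1249 CPM, that of 6 endothelial markers 181 to 210 CPM and that of 5 ependymal markers 476 to 789 CPM. In the SB28 libraries the oligodendrocyte sum was 15.3 to 20.6 CPM and the microglia sum 1.88 to 4.26 CPM. The ependymal sum was 0.829 to 1.37 CPM there. Whether these libraries came from whole tissue or sorted cells was not tested. The endothelial sum in SB28 was 516 to 868 CPM. Most of it was Cdh5, at 490 to 823 CPM, while Pecam1 and Cldn5 did not pass 1.21 and 1.48 CPM. The neuronal sum was low in every library, from 13.5 to 34.5 CPM. In bulk RNA, fewer cells of a type and less RNA per cell cannot be told apart.

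The 2 target genes that separated the astrocyte libraries most widely from SB28, Hes5 and Hey2, are shown first with the DNA before their start sites. Promoter windows of 250 bases before to 50 bases after the RefSeq start (GRCm38.p6) were found for 8 of the 10 genes, all but Hes1 and Hey1, with 9 windows in all. The letters TGGGAA, the core of the motif that RBPJ binds, were searched on both strands. They occurred in the windows of Hes5 and Hey2 and in no other window of these 8 genes. Both windows held them once on each strand, and in all 4 places the preceding base made the longer word GTGGGAA, read on its own strand. The stretches below run 5′ to 3′ on the gene's strand, from 235 bases before the start to 5 bases after it. They lie at chr4:154960688-154960927 (plus strand) for Hes5 and chr10:30842779-30843018 (minus strand) for Hey2, and capitals mark TGGGAA or its reverse complement.
Hes5: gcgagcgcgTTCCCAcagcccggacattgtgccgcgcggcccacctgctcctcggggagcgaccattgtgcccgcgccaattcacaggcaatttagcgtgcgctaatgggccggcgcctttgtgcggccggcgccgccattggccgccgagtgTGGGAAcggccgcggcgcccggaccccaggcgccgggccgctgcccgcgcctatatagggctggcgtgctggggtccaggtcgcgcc
Hey2: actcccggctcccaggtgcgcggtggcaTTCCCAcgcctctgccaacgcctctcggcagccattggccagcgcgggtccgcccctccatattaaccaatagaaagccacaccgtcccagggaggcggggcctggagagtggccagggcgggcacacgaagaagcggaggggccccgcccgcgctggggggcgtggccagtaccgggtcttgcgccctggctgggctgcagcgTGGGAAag
In Hes5 the match on the opposite strand spans positions -226 to -221 and the match on the gene's strand -82 to -77. In Hey2 the opposite-strand match spans -207 to -202, and the other runs across the start site, from -3 to 3. Of 32851 promoter windows of the same length, 25.6% held TGGGAA at least once, 3.79% held it 2 or more times and 1.81% held it on both strands. GTGGGAA was held at least once by 6.38% of them and 2 or more times by 0.256%.

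The same windows were searched for letters bound by the HES and HEY repressors. CACGCG was found once each in Notch2 and Dll1 and 2 times in Jag1, against 9.27% of all windows with a match. CACGAG was found once, in Notch3, against 6.47% of all windows. CACGTG was in none of the 9 windows and in 7.15% of all. A match in letters is a description of the sequence and not a bound site.

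**Figure D1:**
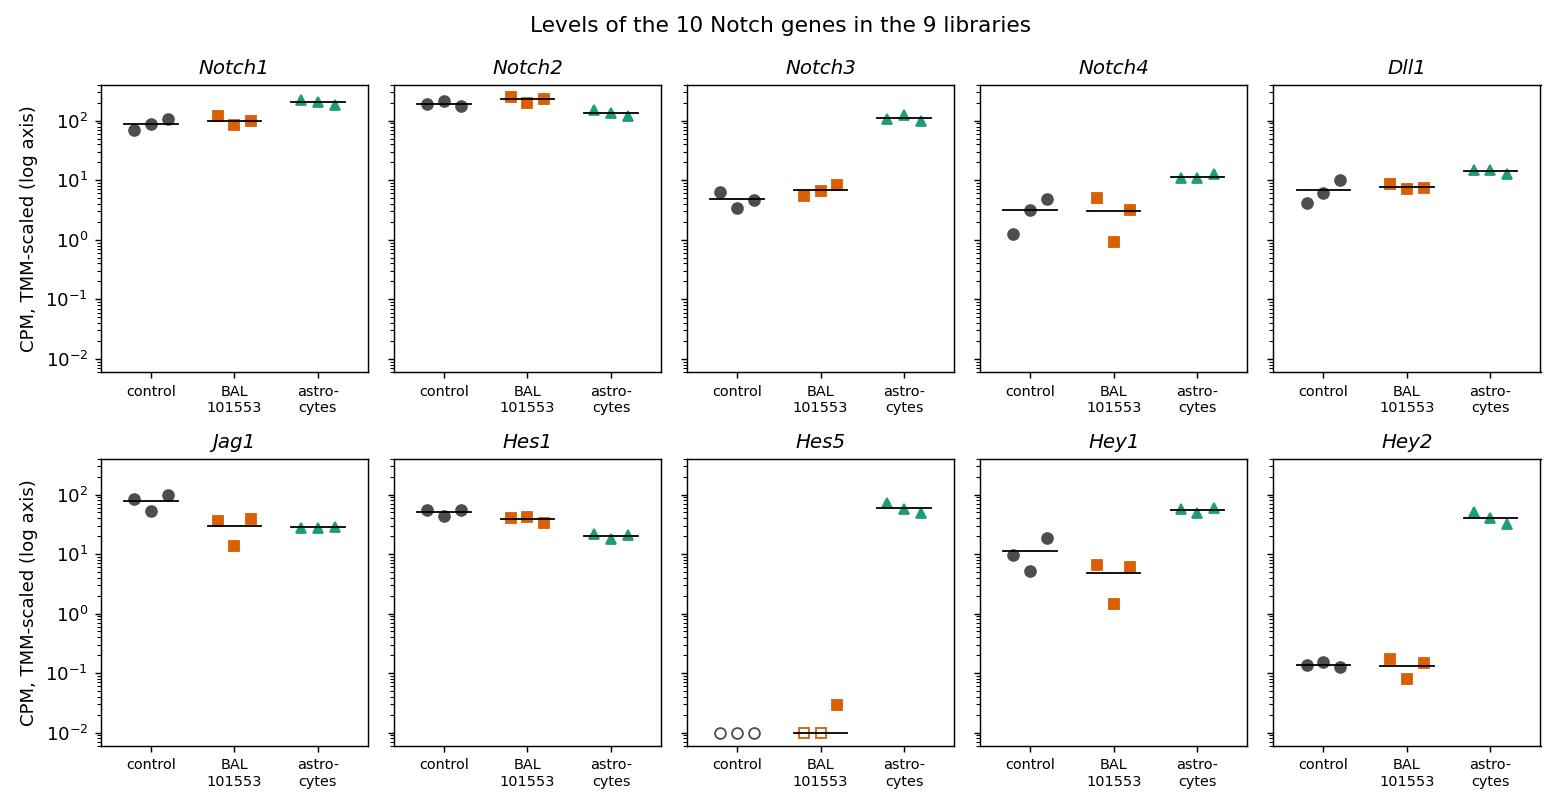
Levels of the 10 Notch genes in every library, in CPM scaled by TMM on a log axis. Each point is 1 library and each line the mean of a group of 3; open points at the bottom of the Hes5 panel are libraries with 0 reads, drawn at 0.01. Jag1 and Hes1 are lower in all BAL101553 libraries than in all control libraries, and Hes5 and Hey2 are near 0 in SB28 and between 32.5 and 71.1 CPM in the libraries labelled astrocytes.

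In SB28 cells from control mice, the leading Notch genes per kilobase were Hes1 at 24.8 ± 3.27 CPM per kilobase (SD, n = 3), Notch2 at 18.0 ± 1.81 and Jag1 at 13.5 ± 3.83. Notch1 followed at 6.18 ± 1.36 CPM per kilobase, and Hey1 and Dll1 at 3.43 ± 2.13 and 1.60 ± 0.702. Notch3, Notch4 and Hey2 lay below 1 CPM per kilobase on average, and Hes5 had no read. In this order, the ranges of Notch2 and Jag1, of Notch1 and Hey1, of Hey1 and Dll1 and of Notch3 and Notch4 overlapped. The other neighbors did not. In BAL101553 libraries Notch2 led at 21.2 ± 2.73 CPM per kilobase, with Hes1 at 18.7 ± 2.03, and these overlapped. Notch1 was at 7.09 ± 1.20 there and Jag1, which overlapped it, at 5.12 ± 2.39 CPM per kilobase.

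The astrocyte libraries had a different order. Hes5 led at 43.4 ± 8.18 CPM per kilobase (SD, n = 3) and Hey1 came next at 17.0 ± 1.64. Hey1, Notch1 (14.5 ± 1.34), Notch3 (13.7 ± 1.80) and Notch2 (12.7 ± 1.47 CPM per kilobase) overlapped one with the next. Hes1, at 9.87 ± 1.05 CPM per kilobase, and Hey2, at 8.92 ± 1.90, overlapped as well. Jag1 was at 4.80 ± 0.0806 and Dll1 at 3.34 ± 0.295. Notch4 was the lowest at 1.41 ± 0.130 CPM per kilobase.

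Per kilobase, Notch2 made up 71.6% ± 5.58 of the summed receptor level in control libraries and 71.9% ± 0.828 in BAL101553 libraries, with Notch1 at 24.5% ± 5.0 and 24.0% ± 0.940. SB28 thus held mainly Notch2 and Notch1 transcripts, with Notch3 at 2.39% and 2.91% and Notch4 at 1.52% and 1.22%. In the astrocyte libraries the receptor level was split among 3 genes: Notch1 at 34.3% ± 1.28, Notch3 at 32.4% ± 3.08 and Notch2 at 29.9% ± 1.84. The share of Notch1 depended on the length used, since its annotated exons add up to 14232 bases and its longest coding transcript has 9488 bases. With the latter, Notch1 was at 32%, 31.5% and 43.3% in control, BAL101553 and astrocyte libraries.

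Among the 5 canonical ligands (Dll1, Dll3, Dll4, Jag1 and Jag2), Jag1 accounted for 87.4% ± 4.15 of the level per kilobase in control, 70.1% ± 11 in BAL101553 and 39.5% ± 0.900 in astrocyte libraries. The share of Dll1 was 10.6% ± 3.92, 28.5% ± 10.8 and 27.5% ± 2.99. Dll1 itself did not differ detectably between control and BAL101553 libraries, as given below, so its larger share there went with the lower level of Jag1. In the astrocyte libraries Jag2 (19.9%) and Dll4 (10.4%) made up most of the rest.

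Hes1 made up 88.3% ± 5.44 and 92.4% ± 4.36 of the summed level per kilobase of 5 HES and HEY targets (Hes1, Hes5, Hey1, Hey2 and Heyl) in control and BAL101553 libraries, and 10.4% ± 1.53 in astrocyte libraries. Hes5 took 45.2% ± 2.59 of the astrocyte sum, Hey1 18.0%, Heyl 17.2% and Hey2 9.27%. The sum itself was 28.3 ± 5.10 CPM per kilobase in control, 20.3 ± 1.64 in BAL101553 and 95.6 ± 12.9 in astrocyte libraries.

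**Figure D2:**
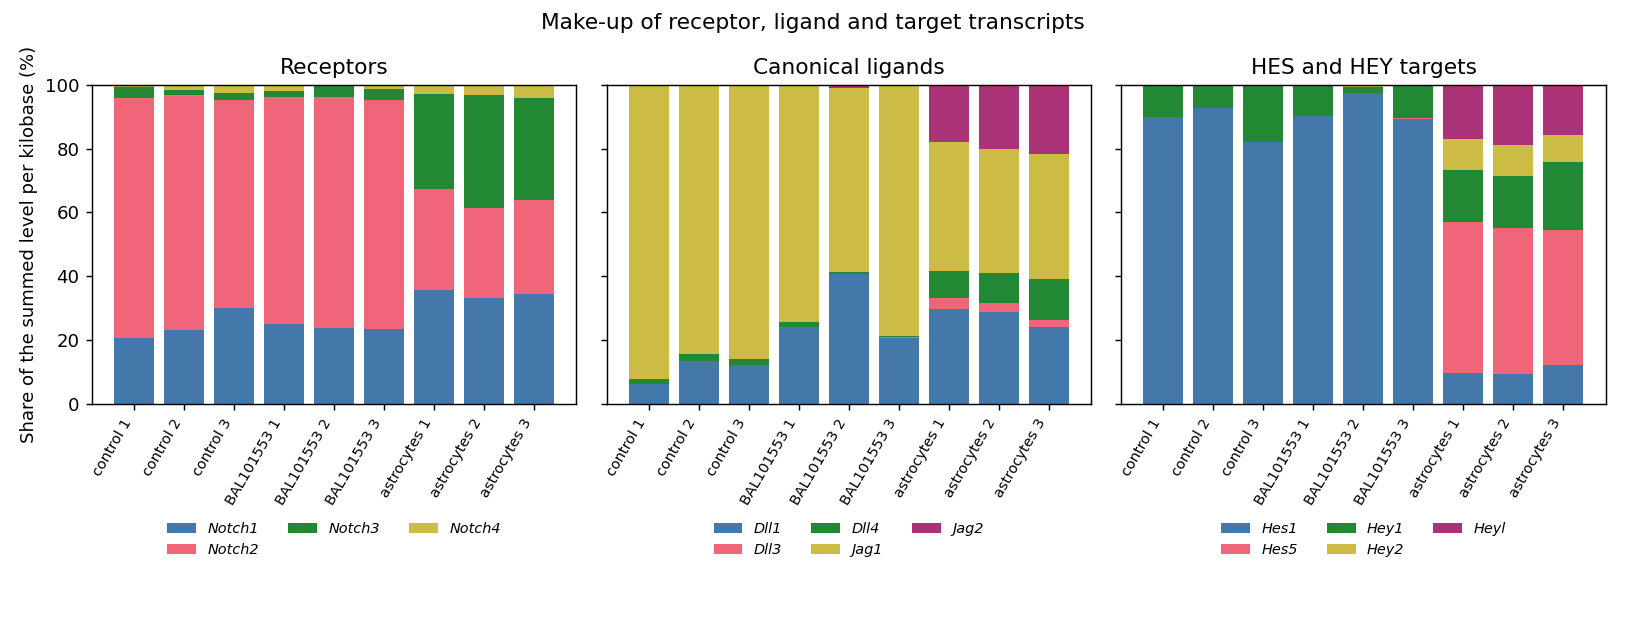
Make-up of receptor, canonical ligand and HES and HEY target transcripts in each of the 9 libraries, as percent of the summed level per kilobase. Each bar is 1 library and each color 1 gene. Notch2 and Hes1 fill most of the receptor and target bars of SB28 and under 33% and 13% of those labelled astrocytes; the BAL101553 2 bar holds the smallest Jag1 share of the SB28 libraries, 57.6%.

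BAL101553 against control libraries sets SB28 tumors of treated mice beside those of mice given vehicle. If the later sampling in the study's methods holds for these libraries, drug and time are compared together. Below, rose, fell and under BAL101553 describe the BAL101553 libraries relative to control libraries. Of the 10 Notch genes, 8 had enough reads to be tested, and 1 passed the threshold of 0.05 for the adjusted p: Jag1, which fell. Over the whole table, 1860 of 12633 genes tested were called, which is 14.7%, with 8.64% higher and 6.09% lower. A count of 1 among 8 genes is near this background and is not a result about the family. Groups did not overlap for 2 of the 8 genes, Jag1 and Hes1, and for 39.7% of all genes tested. These 2 were also the members with an unadjusted p under 0.05, which 34.1% of all genes had. The median log2 fold change of the 8 genes was 0.09, beside 0.02 for all genes. With library totals in place of TMM, the calls over all genes changed from 1091 higher and 769 lower to 1456 higher and 425 lower.

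Jag1, a transmembrane ligand of the Jagged family (chr2:137081456-137116644, minus strand, GRCm38), lay at 84.8, 53.7 and 97.0 CPM in control libraries 1, 2 and 3 and at 36.6, 13.8 and 39.1 CPM in BAL101553 libraries 1, 2 and 3. The highest BAL101553 library was below the lowest control library. The log2 fold change was -1.39 with a standard error of 0.38 (95% interval -2.26 to -0.52), a level 2.62-fold lower under BAL101553, at an adjusted p (Benjamini-Hochberg, over all genes tested) of 0.0462 by edgeR's quasi-likelihood test. The fall was seen in 3 of 3 BAL101553 libraries against each control library. The call is close to the threshold: by the same test the adjusted p was 0.113 without control 1, 0.147 without control 3, 0.0719 without BAL101553 1 and 0.0723 without BAL101553 3, with log2 fold changes from -1.63 to -1.05 when single libraries were left out. It was also 0.0584 with library totals alone.

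Dll1, the Delta-like ligand of the set (chr17:15367354-15376872, minus strand), lay at 4.08, 6.21 and 9.93 CPM in control and 8.55, 7.06 and 7.48 CPM in BAL101553 libraries. The BAL101553 values fell inside the control range. Its log2 fold change was 0.20 with a standard error of 0.30 and an adjusted p of 0.675 by edgeR's quasi-likelihood test, and -0.07 without control 1. The 95% interval, up to 0.89, leaves room for changes of either sign.

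None of the 4 receptors passed the test between BAL101553 and control libraries, in edgeR or in any of the 17 alternatives, and 0 had an unadjusted p under 0.05. Notch2, the most abundant receptor of SB28 (chr3:98013527-98150361, plus strand), lay at 192, 215 and 176 CPM in control and 254, 196 and 235 CPM in BAL101553 libraries, a log2 fold change of 0.24 with a standard error of 0.12 and an adjusted p of 0.206 by edgeR's quasi-likelihood test. The groups overlapped through BAL101553 2. Notch1, the receptor best known from neural stem cells and T cells (chr2:26457903-26516663, minus strand), lay at 68.7, 88.0 and 107 CPM in control and 118, 84.0 and 100 CPM in BAL101553 libraries. Its log2 fold change was 0.20 (95% interval -0.21 to 0.61), with an adjusted p of 0.453 by the same edgeR test.

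The other two receptors were scarce in SB28. Notch3 (chr17:32120820-32166852, minus strand) lay at 6.28, 3.49 and 4.59 CPM in control and 5.40, 6.63 and 8.45 CPM in BAL101553 libraries, with a log2 fold change of 0.52, a standard error of 0.27 and an adjusted p of 0.216 in edgeR's quasi-likelihood test. Notch4 (chr17:34564268-34588503, plus strand) lay at 1.26, 3.18 and 4.88 CPM in control and 5.06, 0.908 and 3.21 CPM in BAL101553 libraries. It spread more widely within each group, up to 5.58-fold between libraries, than between the group means of 3.11 and 3.06 CPM. Its log2 fold change was -0.01, with a standard error of 0.63 and an adjusted p of 0.989 by edgeR, and was 0.08 with library totals alone. The spread of the Notch4 reads limits what could be seen, with a 95% interval that reached 1.44 on the log2 scale.

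Of the targets, Hes1, a bHLH repressor (chr16:30064384-30067796, plus strand), lay at 54.0, 42.9 and 54.7 CPM in control and 39.6, 41.4 and 33.5 CPM in BAL101553 libraries. The groups did not overlap, but the gap between control 2 and BAL101553 2 was small. Its log2 fold change of -0.40 with a standard error of 0.14 did not pass edgeR's quasi-likelihood test, with an adjusted p of 0.0823. Hey1, a HEY repressor (chr3:8663359-8667256, minus strand), lay at 9.56, 5.23 and 18.9 CPM in control and 6.63, 1.42 and 6.10 CPM in BAL101553 libraries. Both groups spread widely and overlapped, and the log2 fold change of -1.24 with a standard error of 0.60 had an adjusted p of 0.188 by edgeR's quasi-likelihood test. BAL101553 2 was the lowest of all SB28 libraries for Jag1, Hey1 and Notch4, and control 2 the lowest control library for Jag1, Hes1 and Hey1. Hes5 and Hey2 were too low to test: Hes5 had 0 reads in 5 of the 6 libraries and 1 read in BAL101553 3, and Hey2 had 2 to 5 reads in each.

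**Figure D3:**
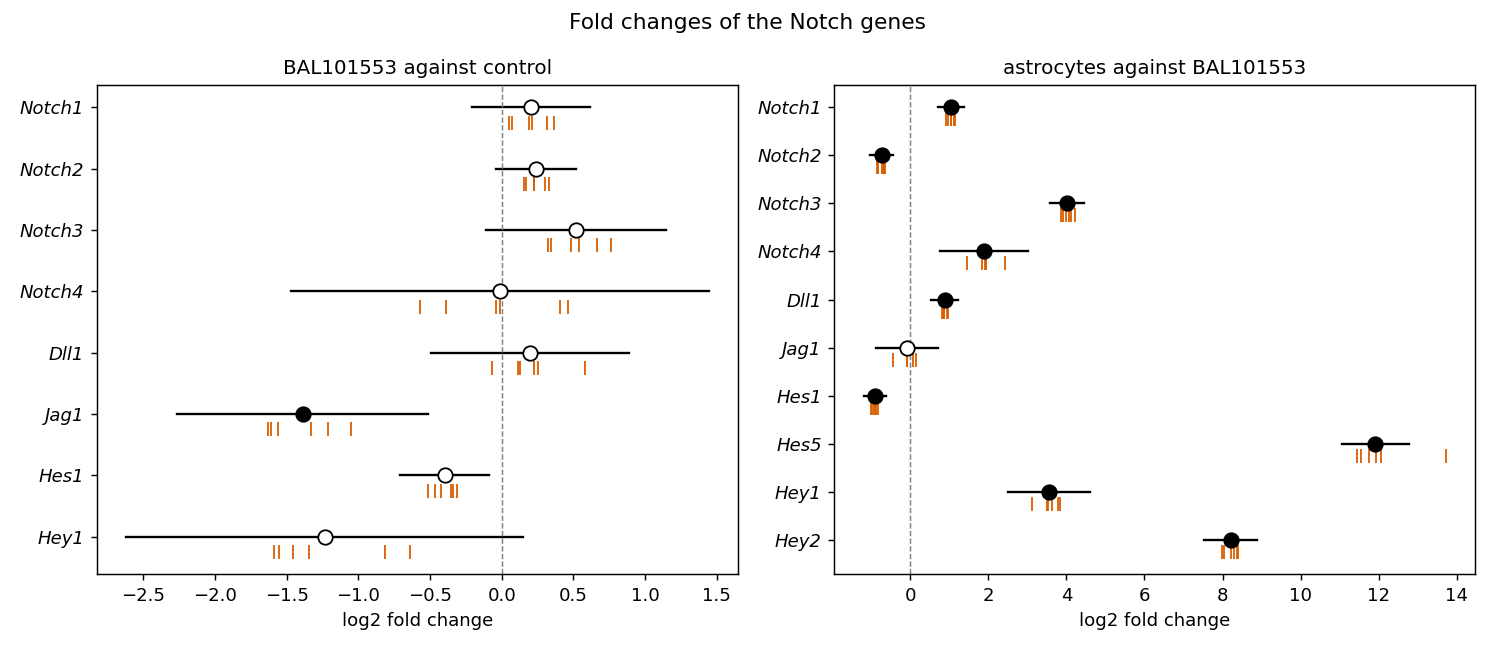
Log2 fold changes of the Notch genes, BAL101553 against control on the left and astrocytes against BAL101553 on the right, each panel with its own axis. Circles are estimates with 95% intervals, filled where the adjusted p is under 0.05 in edgeR's quasi-likelihood test; orange ticks are the estimates with 1 library left out in turn. On the left only Jag1 (-1.39) is filled. On the right all but Jag1 (-0.09) are filled; Hes5 and Hey2 entered that test only through the astrocyte libraries, and their fitted values depend on very few reads in BAL101553 libraries.

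Astrocyte libraries were compared with BAL101553 libraries, since the labels give both the same treatment. It sets the Notch genes of SB28 beside those of libraries from brain that carry the label astrocytes. Hes5 and Hey2 had under 10 reads in every BAL101553 library and entered the test only through the astrocyte libraries, where they were high, so that they had to differ. They are given by their reads alone. Of the other 8 genes, 7 passed the test, 5 higher and 2 lower in the astrocyte libraries, and the groups of those 7 did not overlap. The background was as high, at 85.1% of 15314 genes called, with 46.3% higher and 38.9% lower, and 87.8% with groups that did not overlap. Among genes with at least 10 reads in every library compared, fitted separately, 9779 of 11873 were called, 4950 higher and 4829 lower. An unadjusted p under 0.05 was seen for the same 7 genes and for 85.8% of all. The median log2 fold change of all genes was 0.18, and with library totals in place of TMM it was 0.39, so differences near the gap between these medians are within reach of the scaling.

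Hes5, a HES repressor of neural progenitors and astrocytes (chr4:154960923-154962371, plus strand), had 2307, 1662 and 1299 reads in the 3 astrocyte libraries, or 71.1, 57.3 and 49.0 CPM. In the BAL101553 libraries it had 0, 0 and 1 read and in control libraries none. The astrocyte libraries were at least 364-fold higher than control libraries, counting 3 reads per control library as the floor. Against the single read in the BAL101553 libraries the pooled ratio was 5305, with a 95% counting interval of 952 to 209556. The counting interval leaves out the spread between libraries.

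Hey2, a HEY repressor (chr10:30832359-30842801, minus strand), had 1621, 1174 and 861 reads in the astrocyte libraries, or 50, 40.5 and 32.5 CPM, against 5, 2 and 5 reads in BAL101553 libraries. The pooled ratio was 307, with a 95% counting interval of 175 to 594. Against the 10 reads of the control libraries it was 301. Hes5 and Hey2 are also the genes whose promoter windows, printed above, held TGGGAA on both strands. No window was found for Hes1 or Hey1, and a link between these letters and the levels was not tested. Hey1 was at 57.8, 49.4 and 59.3 CPM in the astrocyte libraries, a log2 fold change of 3.55 with a standard error of 0.45 (11.7-fold) and an adjusted p of 0.000118 by edgeR's quasi-likelihood test.

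Hes1 went the other way. It lay at 21.6, 17.7 and 21.1 CPM in the astrocyte libraries, below all SB28 libraries, with a log2 fold change of -0.91 with a standard error of 0.12 and an adjusted p of 0.000163 by edgeR's quasi-likelihood test. Of the 2 targets with at least 10 reads in every library compared, SB28 thus held Hes1 at a higher level and Hey1 at a lower level. Hes5 and Hey2, which entered the test only through the astrocyte libraries, are left out of this count.

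Notch3 showed the widest difference among the receptors. Its levels were 106, 127 and 98.6 CPM in the astrocyte libraries, a log2 fold change of 4.03 with a standard error of 0.19 (16.3-fold) and an adjusted p of 3.60e-07 by edgeR's quasi-likelihood test. Of 6 mural cell markers, 4 were higher in all astrocyte than in all BAL101553 libraries, among them Vtn at 583 to 682 CPM against at most 0.410 CPM, and 2 were lower, among them Pdgfrb at 227 to 245 CPM against 350 to 374 CPM. The mural sum was 1082 to 1249 CPM in astrocyte and 489 to 655 CPM in BAL101553 libraries. In BAL101553 libraries it was mostly Pdgfrb and Cspg4, the latter at 133 to 303 CPM, and none of the other 4 markers passed 1.44 CPM. The part of mural cells in the Notch3 difference was not tested. Notch4 lay at 10.7, 10.9 and 12.6 CPM in the astrocyte libraries, above every SB28 library, with a log2 fold change of 1.89, a standard error of 0.49 and an adjusted p of 0.00648 by edgeR. Of 6 endothelial markers, 4 were higher there than in all BAL101553 libraries, among them Cldn5 at 59.6 to 63.7 CPM against at most 0.889 CPM, 1 overlapped, and Cdh5 was lower, at 16.8 to 22.8 CPM against 490 to 571 CPM. The endothelial sum, led by Cdh5 in SB28, was 181 to 210 CPM in astrocyte and 516 to 647 CPM in BAL101553 libraries. The part of these cells was not tested.

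Notch1 was higher and Notch2 lower in the astrocyte libraries. Notch1 lay at 226, 207 and 187 CPM, a log2 fold change of 1.05 with a standard error of 0.14 and an adjusted p of 0.000171 by edgeR's quasi-likelihood test. Notch2 lay at 153, 134 and 122 CPM, below all SB28 libraries, with a log2 fold change of -0.73, a standard error of 0.13 and an adjusted p of 0.000930 in the same test. The 4 receptors were all called, as were 85.1% of all genes. Their summed level per kilobase was 29.5 ± 4.11 CPM in BAL101553 and 42.3 ± 3.51 CPM in astrocyte libraries.

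Of the ligands, Dll1 was higher, at 14.6, 14.9 and 12.6 CPM in the astrocyte libraries, with a log2 fold change of 0.88, a standard error of 0.15 and an adjusted p of 0.000593 by edgeR's quasi-likelihood test. Jag1, at 27.6, 27.8 and 28.5 CPM, lay inside the range of the BAL101553 libraries, with a log2 fold change of -0.09 (95% interval -0.88 to 0.71) and an adjusted p of 0.821 in that test. The sign of this value turned with upper-quartile scaling (0.10) and library totals (0.12). The result rested on BAL101553 2: without it the log2 fold change was -0.44, with an adjusted p of 0.00181 by edgeR. Against control libraries Jag1 was lower in astrocyte libraries, at a log2 fold change of -1.48 and an adjusted p of 9.61e-05 by the same test.

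The 66 other genes of the pathway, in 8 lists, were all in the table. Of the 50 tested between BAL101553 and control libraries, 12 were called by edgeR's quasi-likelihood test, 10 higher and 2 lower, beside 14.7% of all genes, 8.64% higher and 6.09% lower. Leaving out Dll4 and Aph1c, which had under 10 reads in a library and passed the filter through the group where they were high, 10 of 48 were called, 9 higher and 1 lower. These shares of all genes are also the background for the counts by list that follow. In place of 12, the count over all lists was 0 without control 3, 3 without control 1 or BAL101553 3, 5 without BAL101553 1, and 8 without control 2 or BAL101553 2.

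The 2 genes that fell under BAL101553 were Dll4 and Dtx4. Dll4, the endothelial Delta-like ligand, had 21, 23 and 35 reads in control and 13, 2 and 5 reads in BAL101553 libraries, a fitted log2 fold change of -2.25. At about 1 CPM it was scarce beside Jag1, and the call was lost in 5 of 6 fits with 1 library left out. Of the 6 endothelial markers, Cdh5 and Tek were lower in all BAL101553 than in all control libraries and 4 overlapped. The sum, mostly Cdh5, was 516 to 647 CPM against 740 to 868 CPM. Pecam1 and Cldn5, among the 4 that overlapped, did not pass 1.21 and 1.48 CPM in either group, so the sum mainly follows Cdh5. The part of endothelial cells was not tested. Dtx4, a Deltex ubiquitin ligase, lay at 58.0, 49.6 and 57.8 CPM in control and 32.1, 31.2 and 35.2 CPM in BAL101553 libraries, a log2 fold change of -0.74 with a standard error of 0.11 and an adjusted p of 0.00934 by edgeR. It was called in 5 of the 6 fits that left out a library, more often than Jag1 or any of the other pathway genes called.

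Among the 18 genes of the nuclear complex and its co-repressors, 5 rose and 0 fell, beside 8.64% and 6.09% of all genes. Tle2, a Groucho co-repressor, went from 7.09, 3.87 and 5.77 CPM to 17.9, 10.7 and 16.6 CPM, a log2 fold change of 1.44 with an adjusted p of 0.0188 by edgeR's quasi-likelihood test. Spen, a co-repressor that RBPJ recruits, rose by 0.81 (adjusted p 0.0244) and the Mastermind co-activator Maml3 by 0.57 (0.0297) on the log2 scale. The acetyltransferase gene Ep300 rose by 0.41 (0.0476) and the co-repressor Ncor1 by 0.29 (0.0442), all by the same edgeR test. Co-activators and co-repressors were thus both among them. The calls of Maml3, Ep300 and Ncor1 were lost in 5, 5 and 6 of the 6 fits that left out a library. Those of Tle2 and Spen were kept in 4 and 3 of these fits.

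Of 9 sheddase and gamma-secretase genes, 2 rose, beside 8.64% of all genes. Adam17, a protease that can cut Notch receptors, rose by 0.38 on the log2 scale (adjusted p 0.0356 by edgeR), a call lost in 5 of the 6 fits that left out a library. Aph1c, a gamma-secretase subunit, had 3 to 7 reads per control library and 25 to 31 per BAL101553 library, and was not tested with at least 10 counts in every library. Aph1c has a near copy in Aph1b, so its count is uncertain. The atypical ligand Dlk2 rose from 7.31, 5.38 and 4.67 CPM to 9.58, 13.3 and 11.6 CPM (log2 fold change 0.99, adjusted p 0.0272 by edgeR). That call was kept in 3 of the 6 fits that left out a library. It was lost with the replicate number as a block.

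Of 11 ubiquitin ligases and endocytic regulators tested, Dtx3 and the kinase gene Aak1 rose besides the fall of Dtx4. Their log2 fold changes were 0.50 and 0.43, at adjusted p of 0.0284 and 0.0390 in edgeR's quasi-likelihood test, and both calls were lost in 5 of the 6 fits that left out a library. The 3 calls stand beside 14.7% of all genes. No gene of 4 tested glycosyltransferases passed, with 1 at an unadjusted p under 0.05. Lfng, whose product adds sugars to the receptors and shifts their choice of ligand, had the lowest p of these, with a log2 fold change of 0.83 and an adjusted p of 0.141 by edgeR. A further list, of HES and HEY genes and other genes taken as targets, had 4 tested: Hes6, Nrarp, Bhlhe40 and Bhlhe41. Only Hes6 of these is a HES or HEY gene. Whether any of them is a Notch target in these cells was not tested. None of the 4 passed, and 0 had an unadjusted p under 0.05. Bhlhe41, at a log2 fold change of 1.03 (adjusted p 0.187), and the feedback inhibitor Nrarp, at -0.88 (adjusted p 0.199), came closest in that edgeR test. The 6 proneural factors were too low to test in SB28.

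**Figure D4:**
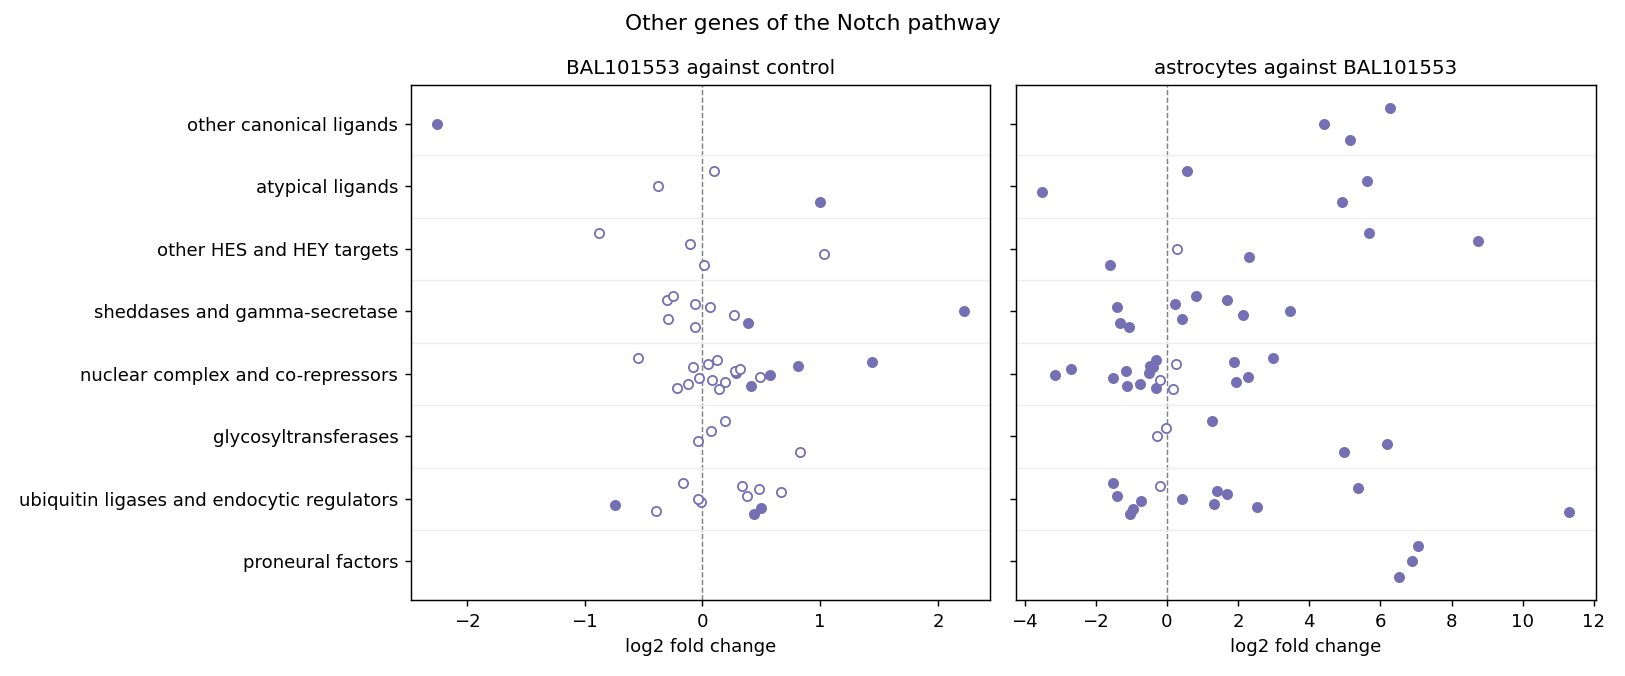
Log2 fold changes of the other Notch pathway genes, by list, BAL101553 against control on the left (50 genes tested) and astrocytes against BAL101553 on the right (60 genes tested), each panel with its own axis. Each point is 1 gene, filled where the adjusted p is under 0.05 in edgeR's quasi-likelihood test, and points are spread vertically only for legibility. The list of other HES and HEY targets also holds Nrarp, Bhlhe40 and Bhlhe41, which are not HES or HEY genes. On the left 12 points are filled, 10 of them to the right of 0; on the right 53 are filled, 32 to the right of 0.

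Between astrocyte and BAL101553 libraries, 53 of 60 pathway genes tested were called by edgeR's quasi-likelihood test, 32 higher and 21 lower, beside 85.1% of all genes. Of these, 11 had under 10 reads in a BAL101553 library and were tested only through the astrocyte libraries. Among the other 49 genes 42 were called, 21 higher and 21 lower. Of all genes with at least 10 reads in every library compared, fitted separately, 9779 of 11873 were called, 4950 higher and 4829 lower. The remaining canonical ligands were all among the 11. Jag2 had 473, 503 and 494 reads there and 6, 8 and 5 reads in BAL101553 libraries, and Dll4 had 125, 132 and 166 reads against 13, 2 and 5. Of 5 genes tested from the further list (Hes6, Heyl, Nrarp, Bhlhe40 and Bhlhe41), 3 were higher and 1 lower. The lower one was Bhlhe40 (log2 fold change -1.60, adjusted p 9.57e-05 by edgeR). Without Heyl, which was 1 of the 11, 2 of 4 were higher and 1 lower. Heyl, a HEY family gene of mural cells, had 3070, 2586 and 1807 reads against 1, 12 and 4, and Nrarp lay at 110, 96.4 and 91.2 CPM against 1.78, 1.3 and 2.65 CPM.

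The glycosyltransferase gene Lfng lay at 153, 152 and 168 CPM in the astrocyte libraries and at 6.60, 2.53 and 5.86 CPM in BAL101553 libraries, a log2 fold change of 4.97 with an adjusted p of 1.65e-06 by edgeR's quasi-likelihood test. In all, 3 of 5 glycosyltransferases passed, each higher, and 12 of 13 ubiquitin ligases and endocytic regulators, 7 of them higher, beside 85.1% of all genes. Without genes that had under 10 reads in a BAL101553 library, 2 of 4 glycosyltransferases passed, both higher. Of the 11 ubiquitin ligases and endocytic regulators left, 10 passed, 5 higher and 5 lower. These stand beside 9779 of 11873 genes with at least 10 reads in every library compared. Dtx1, another Deltex gene, had 3014, 2566 and 2787 reads against 2, 0 and 1. The atypical ligands Dner (log2 fold change 5.62, adjusted p 1.27e-06) and Dlk2 (-3.50, 4.54e-06) went opposite ways in the same edgeR test. Of the 9 sheddase and gamma-secretase genes 6 were higher and 3 lower, beside 46.3% and 38.9% of all genes, among them Aph1b (2.12, adjusted p 1.31e-06) and Ncstn (-1.39, adjusted p 1.29e-06) in that test.

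In the nuclear complex, 11 of 18 genes were lower and 4 higher in the astrocyte libraries, beside 38.9% and 46.3% of all genes. Rbpj itself lay at 56.2, 60.6 and 52.8 CPM there and at 372, 374 and 372 CPM in BAL101553 libraries, a log2 fold change of -2.70 with a standard error of 0.09 and an adjusted p of 7.35e-08 by edgeR's quasi-likelihood test. Maml3 was lower too (-3.15, adjusted p 1.97e-07) and the co-repressor Tle4 higher (3.0, adjusted p 1.01e-06). The astrocyte libraries thus had the lower level of Rbpj transcripts and higher levels of Hey1, Nrarp and Bhlhe41. Hes5, Hey2 and Heyl are left out here, since they entered the test only through the astrocyte libraries and had to differ. Hes1 and Bhlhe40 were lower in the astrocyte libraries. A relation between Rbpj and the levels of these genes was not tested.

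The gene whose log2 CPM profile over the 9 libraries, centered on its mean, lay nearest to each Notch gene was sought among 15345 genes by the root mean square difference. Nearest to Jag1 was Csgalnact1, at 0.27 on the log2 scale, with means of 105, 39.9 and 34.7 CPM in control, BAL101553 and astrocyte libraries. Nearest to Dll1 was Notch1, at 0.18, so that 2 of the 10 stood side by side. Notch2 lay nearest to Gramd4 (0.05), Notch1 to Fancc (0.11), Notch3 to Cd46 (0.19) and Notch4 to 2310034G01Rik (0.33). For the targets these were Ube2a for Hes1 (0.08), Fam198a for Hes5 (0.21), Fam181b for Hey1 (0.39) and Egfl6 for Hey2 (0.22). The 9 libraries share their 3 groups, so a small difference mostly reflects similar steps between groups and not equal levels. The means of Cd46 were 0.0299, 0.0672 and 2.02 CPM in control, BAL101553 and astrocyte libraries, far below those of Notch3. Fam198a and Egfl6 were at 0 CPM in both SB28 groups. A prior count of 2 entered the log2 values, so steps from levels near 0 depend largely on it.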

How the data were processed

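RNA was sequenced from 9 libraries, 3 each labelled control, BAL101553 and astrocytes. The authors deposited whole-number read counts per gene, not normalized. Per the labels and the study's methods, stranded libraries were mapped to mm10 with TopHat and counted with HTSeq 0.6.1 or featureCounts; which counter made the table, its annotation and its strand setting are not given in the sources used here. Notch1, Notch3, Notch4, Dll1 and Hes5 overlap an annotated gene on the opposite strand, and Notch1 and Notch2 one on their own, so some of their reads may belong to either gene. At these depths (22919523 to 34013875 reads per library), taken over all genes, counting error is small beside the spread between libraries. It is not small for genes with few reads, such as Aph1c with 31, 25 and 30 reads in the BAL101553 libraries. The counting intervals and floors given for Hes5 and Hey2 cover counting error only. Intervals of fitted log2 fold changes come from edgeR's quasi-likelihood fit and include the spread between libraries.

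Samples were grouped by their labels. The analysis used edgeR 4.0.16 under R 4.3.3: filterByExpr, TMM scaling, the quasi-likelihood test on the 2 groups compared, two-sided, Benjamini-Hochberg adjustment over all genes tested, threshold 0.05. A standard error is the fitted log2 value over the root of the F statistic. Levels are CPM scaled by TMM over 9 libraries, divided by exon length (GENCODE vM21, GRCm38) where genes are compared. Alternatives were DESeq2 1.42.0, limma-trend (limma 3.58.1), edgeR's exact test, other scalings and filters, other sets of libraries, each library left out, the replicate number as a block and, chosen after seeing the data, another gene length. The tests were tested on simulated data. The members and lists were chosen with earlier results of these data known. Named were all members, the pathway genes called under BAL101553 or, in lists without a call, up to 3 with the lowest p, up to 3 per list in the astrocyte comparison, and the nearest gene to each member. The proneural list of the astrocyte comparison is not reported here by gene. Within groups, libraries differed beyond counting noise and none was a duplicate.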

Additional observations from a re-analysis of the deposited data

How the results depend on the processing

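Between astrocyte and BAL101553 libraries, the 7 Notch genes called that had at least 10 reads in every library kept their direction and stayed past the threshold under all 17 alternatives; Hes5 and Hey2 were not tested with at least 10 counts in every library. Jag1 turned from -0.09 to 0.10 with upper-quartile scaling, 0.12 with library totals, 0.0652 with limma-trend and 0.14 with at least 10 counts in every library. It ranged from -0.44 to 0.16 with single libraries left out, passing the threshold without BAL101553 2, and was -1.48 and past the threshold with control libraries as reference. The cause was not tested.

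Between BAL101553 and control libraries, 1860 genes were called, against 2832 with DESeq2, 3022 with all 9 libraries in 1 model, 1 with control 1 and 2 and BAL101553 2 and 3 only, and 193 to 1712 with single libraries left out. Jag1 kept its direction under all 17 alternatives and its call under 11, with adjusted p from 0.00390 to 0.186 by the edgeR, limma and DESeq2 tests. It was not called with library totals (-1.29) or with 2 libraries per group (-1.38), and ranged from -1.63 to -1.05 with single libraries left out. The count of Notch genes called, 1 in the report, was 0 with library totals and with 2 libraries per group, 2 with DESeq2, which added Hes1 (-0.41, adjusted p 0.0470), and 0 to 1 with single libraries left out. The count of pathway genes called, 12, was 10 to 18 with other tools, scalings and filters and all 9 libraries in 1 model, 0 with 2 libraries per group and 0 to 8 with single libraries left out. Notch4 (-0.01) turned to 0.0763 with library totals and ranged from -0.57 to 0.46 with single libraries left out, turning without control 3 (0.46) and BAL101553 2 (0.41). Dll1 turned to -0.0660 without control 1, in a range up to 0.58. The cause was not tested.

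With the replicate number as a block, BAL101553 against control gave 2 Notch genes called, Jag1 (-1.48) and Hey1 (-1.31, adjusted p 0.0429 by edgeR's quasi-likelihood test), 7 pathway genes and 1371 genes in all, and Jag1 between astrocyte and BAL101553 libraries was 0.0429. The libraries share only a number: deviations of same-numbered control and BAL101553 libraries correlated at 0.10, 0.0046 and 0.11, and not every library correlated best with its own number in either comparison. The block changed no other call of a Notch gene.

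With the longest coding transcript in place of all exons, Notch1 made up 32%, 31.5% and 43.3% of the receptor level in control, BAL101553 and astrocyte libraries, Notch2 64.3%, 64.6% and 25.8%, and Notch3 27.4% in astrocyte libraries. Depth limits Hes5 and Hey2 in SB28, with 0 to 5 reads per library.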
